A study of Mus musculus with 24 samples.

Results

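The extracellular matrix genes described here are those of the 4 lecticans (Acan, Bcan, Ncan and Vcan), of 2 tenascins (Tnc and Tnr) and of 3 link proteins (Hapln1, Hapln2 and Hapln4). They were chosen by family, with earlier results of these data known, and they make up 9 of the 21965 genes in the count table. All 9 were counted and all 9 passed the filter on low counts, which kept 17167 genes. Libraries came from spinal cord of OL-Ribotag mice, in which a tamoxifen-activated Cre expressed in the OL lineage switches on an HA tag on the ribosomal protein RPL22 in mature oligodendrocytes (OLs). Female mice, aged 10 to 12 weeks per the labels, received a T9 contusion of 50 kdyn, and tissue around the lesion was taken at day post-injury (dpi) 2, 10 or 42 and compared with tissue of naive mice that carried the same alleles and the same tamoxifen treatment. Tissue of 2 mice was pooled, with 3 pools in each of the 4 conditions. Total spinal cord RNA and RNA pulled down with the HA-tagged ribosomes, called OL from here on, were sequenced from every pool. The p-values below measure the spread between libraries within groups, each from another pool. The main fit treats the OL and total RNA libraries of a pool as independent. The methods of the study give another age at injury than the labels. Per the study, naive tissue was taken at the same time after tamoxifen as dpi 42 tissue. At dpi 2 and dpi 10, injury therefore cannot be told apart from age at collection and time since tamoxifen. Per the study, controls were uninjured naive mice, and injured mice also had anesthesia, laminectomy and postoperative antibiotic and analgesic drugs. At every day after SCI, the contusion cannot be told apart from these. The study reports the tag also in a small share of cells without the OL marker CC1, and the same Cre line is active in Schwann cells, so the OL libraries are not free of other cells. The study also proposes that untagged RNA of microglia and macrophages contaminates the OL libraries after SCI, and it filtered its OL changes for this. That filter was not applied here, so a change in OL need not be one of OLs.

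Lecticans are chondroitin sulfate proteoglycans that bind the sugar polymer hyaluronan at one end and tenascins at the other, and link proteins clamp the lectican to hyaluronan. Together they build the perineuronal nets around neurons and the matrix at nodes of Ranvier, the gaps between myelin segments. After spinal cord injury (SCI), chondroitin sulfate proteoglycans and tenascin-C accumulate in the scar, where they are known to hinder axon regrowth and remyelination.

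The libraries held 25840127 to 32987841 counts on genes, and levels are given as CPM, counts scaled to a common library size by the TMM method. The OL markers Mbp, Mog and Mag were called enriched in OL in all 4 conditions. The summed level of 8 astrocyte markers (such as Gfap, Aqp4 and Slc1a3) ran from 6947 to 9492 CPM in total RNA and from 2250.4 to 14783 CPM in OL, and it stood high in naive OL library 3 (12373 CPM, against 2474 and 2250.4), dpi 2 OL library 3 (9726 CPM, against 4168 and 2542), dpi 10 OL library 2 (7654 CPM) and dpi 42 OL libraries 1 and 2 (14783 and 12875 CPM, against 2869). In 2 of the dpi 42 libraries the labels conflict on the kind of RNA, and they were placed by their description. The one placed as OL had a summed level of 8 OL markers of 103467 CPM, and the other OL libraries of dpi 42 had 114504 and 137141 CPM. All total RNA libraries of dpi 42, as placed, were at 21089.5 to 23342 CPM. Both libraries of pool 2 of dpi 2 held 2414 to 2604 counts on 4 Y-linked genes, against at most 13 in the other 22, although the mice are labelled female.

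Lectican and link protein genes lie beside each other in the mouse genome (GRCm38, GENCODE M21). On chromosome 3, Bcan (chr3:87987531-88000230, minus strand), which encodes brevican, is followed by Hapln2 (chr3:88021750-88027583, minus strand), which encodes the link protein of nodes of Ranvier, 21.5 kb away on the same strand. On chromosome 8, Ncan (chr8:70093085-70120873, minus strand) for neurocan and Hapln4 (chr8:70083457-70090862, plus strand), a link protein of perineuronal nets, face each other tail to tail at 2.22 kb. On chromosome 13, Vcan (chr13:89655312-89742509, minus strand) for versican and Hapln1 (chr13:89539796-89611652, plus strand), the link protein first known from cartilage, are 43.7 kb apart, again tail to tail. Acan (chr7:79053483-79115099, plus strand), which encodes aggrecan, sits beside Hapln3, which is no member here. The tenascin genes Tnc (chr4:63959785-64047015, minus strand) and Tnr (chr1:159523769-159931729, plus strand) stand apart. No other listed gene lies between the partners of any of the 4 lectican and link protein pairs.

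Short stretches before the transcription start are shown, for the adjacent genes Bcan and Hapln2, of which Hapln2 alone was called enriched in OL, and for Tnc, the member that rose on dpi 2. They were taken from the RefSeq start regions of build GRCm38.p6, which hold 8 of the 9 genes, and the Hapln2 stretch ends where the GENCODE gene begins. The Bcan stretch is chr3:88000357-88000606, the Hapln2 stretch is chr3:88027584-88027761 and the Tnc stretch is chr4:64047016-64047265, all read on the minus strand. Capitals mark the letters CCAAT in the first 2 and TATAAA in the last.
Bcan: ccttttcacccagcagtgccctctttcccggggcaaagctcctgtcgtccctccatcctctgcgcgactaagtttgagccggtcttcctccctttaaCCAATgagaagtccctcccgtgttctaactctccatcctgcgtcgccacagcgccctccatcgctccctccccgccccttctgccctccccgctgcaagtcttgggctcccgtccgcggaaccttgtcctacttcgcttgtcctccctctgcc
Hapln2: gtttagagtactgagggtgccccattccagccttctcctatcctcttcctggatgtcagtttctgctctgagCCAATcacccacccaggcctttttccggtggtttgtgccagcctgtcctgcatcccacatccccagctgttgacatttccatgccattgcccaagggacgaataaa
Tnc: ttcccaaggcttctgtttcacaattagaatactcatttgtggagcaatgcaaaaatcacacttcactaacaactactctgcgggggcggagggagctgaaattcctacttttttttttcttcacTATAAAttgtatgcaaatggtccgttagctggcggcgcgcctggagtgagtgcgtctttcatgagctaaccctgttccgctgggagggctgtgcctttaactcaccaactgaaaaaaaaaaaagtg
Read on both strands, CCAAT occurs in the 250 bases before the start of 33.8% of 32851 RefSeq entries, and of the members it was present for Bcan, Hapln2, Acan and Vcan. TATAAA occurs in 12.4% of entries and was present for Tnc and Ncan. The Ncan match, at base -11 of the RefSeq region, lies inside the GENCODE gene. The letters TGANTCA, to which AP-1 factors bind, occur in 6.75% of entries and in none of the members' windows. The letters ACAANG, which SOX factors read, occur in 36.3% of entries and were present for Bcan, Hapln2, Tnr and Hapln1. The Hapln2 match to ACAANG, at base -35 of the RefSeq region, lies inside the GENCODE gene and outside the stretch shown. The whole RefSeq window of Hapln1 also lies inside its GENCODE gene. These matches are descriptions of the letters and no binding sites.

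To set genes beside each other, levels were divided by exon length (TMM-scaled RPKM). In naive total RNA the order was Bcan (76.8 ± 6.26 RPKM, SD, n = 3), Hapln4 (72.0 ± 3.58), Hapln2 (46.2 ± 6.42), Tnr (11.1 ± 0.33), Ncan (10.5 ± 0.292), Hapln1 (4.6 ± 0.336), Acan (3.88 ± 0.0714), Vcan (1.77 ± 0.293) and Tnc (0.572 ± 0.1). The libraries of neighbouring genes in this order overlapped for Bcan and Hapln4 only. In naive OL the order was different. Hapln2 led with 333 ± 58.3 RPKM (SD, n = 3), followed by Bcan (66.5 ± 78.3), Ncan (6.17 ± 6.72), Hapln4 (2.81 ± 0.988), Tnr (1.12 ± 0.232) and Tnc (0.512 ± 0.652), and Acan, Vcan and Hapln1 were at 0.23 ± 0.0788, 0.171 ± 0.0894 and 0.133 ± 0.0616 RPKM. Neighbours in the OL order did not overlap for Hapln2 and Bcan, Bcan and Ncan, and Hapln4 and Tnr, and all other neighbours did. The SD of Bcan, Ncan and Tnc in naive OL exceeded their mean.

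**Figure D1:**
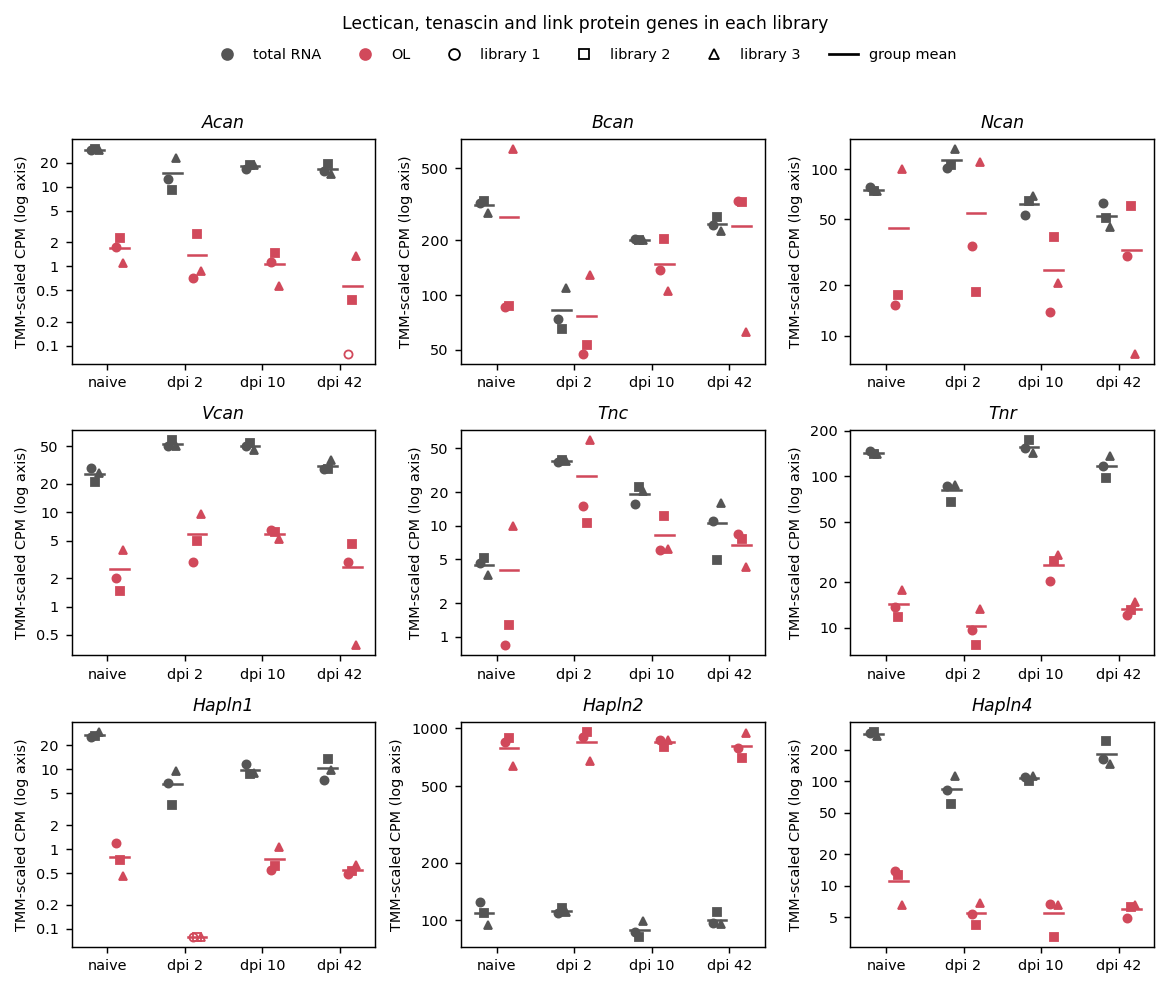
Level of each gene in each of the 24 libraries, as TMM-scaled CPM on a log axis, for total RNA (grey) and OL (red) in naive tissue and at dpi 2, 10 and 42. Marker shapes give the library number, bars the mean of 3 libraries, and open markers at the foot of a panel are libraries with 0 counts. Hapln2 is the gene whose OL libraries (633 to 958 CPM) all sit above its total RNA libraries (82.5 to 125 CPM), and Hapln1 has no counts in OL at dpi 2.

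OL enrichment, the level in OL against total RNA of the same condition, asks which of these genes ribosomes of mature OLs carry. Hapln2 was the enriched member, and 5 members (Acan, Vcan, Tnr, Hapln1 and Hapln4) were depleted, in each of the 4 conditions. A gene is called here at q under 0.05 and a log2 fold change past 0.5 in either direction (edgeR quasi-likelihood test, q adjusted by Benjamini-Hochberg over the 17167 genes). In naive tissue this rule called 21.7% of all genes higher and 28.6% lower in OL. At dpi 2 these shares were 20.5% and 27.2%, at dpi 10 they were 21.2% and 27.3%, and at dpi 42 they were 21.1% and 27.0%. The median log2 difference of the 9 members was -3.30 in naive tissue (all genes -0.27), -2.98 at dpi 2 (all genes -0.19), -2.59 at dpi 10 (all genes -0.22) and -3.13 at dpi 42 (all genes -0.18).

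Hapln2 measured 633, 849 and 890.2 CPM in the naive OL libraries and 94.5, 109 and 125 CPM in naive total RNA. After SCI its OL level was 673, 904 and 958 CPM on dpi 2, 801, 865 and 866 CPM on dpi 10, and 699, 788 and 943 CPM on dpi 42. The OL libraries lay above the total RNA libraries in every condition, and within each kind of RNA the libraries after SCI overlapped with the naive ones. The log2 OL enrichment was 2.85 ± 0.15 (SE, q = 2.0e-12) in naive tissue, 2.91 ± 0.15 on dpi 2, 3.24 ± 0.16 on dpi 10 and 3.00 ± 0.15 on dpi 42. The 3 genes whose log2 CPM followed Hapln2 most closely over the 24 libraries were Gjb1, Pcbp4 and Tmprss5 (Pearson r = 1.00 each over 24 libraries, which differ above all between OL and total RNA). Gjb1 encodes connexin 32, a gap junction protein of OLs and Schwann cells.

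Of the lecticans, Acan and Vcan were depleted. Acan was at 1.11, 1.76 and 2.28 CPM in naive OL and at 28.6, 28.8 and 29.6 CPM in naive total RNA, a log2 OL enrichment of -4.08 ± 0.64 (q = 1.2e-05). Vcan was at 1.48, 2.02 and 3.94 CPM against 21.1, 26.2 and 29.5 CPM (-3.36 ± 0.50, q = 6.4e-06). For both genes all OL libraries lay below all total RNA libraries in every condition.

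The depleted link proteins and tenascin showed the same order of libraries. Hapln4 was at 6.58, 12.7 and 13.7 CPM in naive OL and at 268, 285 and 295 CPM in naive total RNA (log2 -4.68 ± 0.31, q = 3.8e-11). Hapln1 was at 0.459, 0.719 and 1.18 CPM against 25.6, 26.4 and 29.4 CPM (-5.11 ± 0.43, q = 3.7e-09). Tnr, whose product tenascin-R is a partner of lecticans in nets and at nodes, was at 11.8, 13.8 and 17.7 CPM against 139.8, 141 and 148 CPM (-3.30 ± 0.20, q = 9.5e-12). Its depletion was smallest on dpi 10 (-2.59 ± 0.19). Summed neuron markers (such as Snap25 and Syt1) were at 427 to 549.6 CPM in naive OL and at 9187 to 9798 CPM in naive total RNA, and their part in these depletions was not tested.

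Bcan, Ncan and Tnc were not called enriched or depleted in any condition. In naive OL, Bcan was at 86.3, 86.9 and 637 CPM and in naive total RNA at 283, 322 and 331 CPM. Ncan was at 15.3, 17.6 and 100.2 CPM against 74.0, 74.2 and 77.7 CPM, and Tnc was at 0.84, 1.27 and 9.83 CPM against 3.61, 4.56 and 5.16 CPM. The highest value of each was in OL library 3 alone, so the groups overlapped. Bcan and Tnc had their highest OL library in the library with the highest astrocyte marker sum in 4 of 4 conditions, Ncan in 3 of 4 and Hapln2 in 0 of 4. The lowest OL library was the one with the lowest sum in 1 of 4 conditions for Bcan. For Ncan and Tnc this held in 3 of 4 each, and for Hapln2 in 0 of 4. On dpi 42 Bcan was at 330.2 and 326 CPM in the OL libraries with high astrocyte markers and at 63.0 CPM in the other. The part of astrocyte RNA in these values was not tested.

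Without OL library 3 of naive tissue and of dpi 2, an alternative chosen after seeing the data, all 9 members were called in naive OL enrichment, where that fit called 55.1% of all genes in either direction. Bcan was then at -1.69 ± 0.42 (q = 0.00141), Ncan at -2.03 ± 0.51 (q = 0.00178) and Tnc at -1.91 ± 0.46 (q = 0.0012) on the log2 scale. On dpi 2, Ncan (-2.14 ± 0.51, q = 0.00124) and Tnc (-1.63 ± 0.39, q = 0.00143) were called and Bcan was not. With only the OL and total RNA libraries of dpi 10 in the fit, Ncan and Tnc were called depleted at that day as well (log2 -1.27, q = 0.00566 and -1.19, q = 0.00523).

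**Figure D2:**
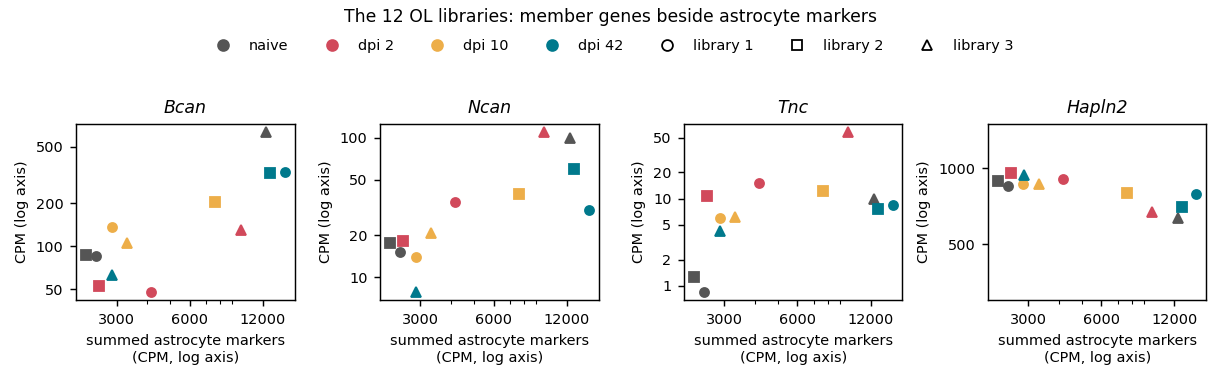
Levels of Bcan, Ncan, Tnc and Hapln2 (CPM, log axis) in the 12 OL libraries against the summed level of 8 astrocyte markers (CPM, log axis), coloured by condition and shaped by library number. Naive library 3 has 12373 CPM of astrocyte markers and the highest Bcan value (637 CPM), and Hapln2 is lowest there (633 CPM).

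The lecticans can also be set against each other within a library, as shares of their summed RPKM. In naive total RNA Bcan took 82.6% ± 1.23 of lectican RPKM, Ncan 11.3% ± 0.726, Acan 4.19% ± 0.245 and Vcan 1.91% ± 0.358 (SD, n = 3). On dpi 2 the Bcan share was 48.5% ± 3.79, the Ncan share 38.0% ± 2.86 and the Vcan share 9.03% ± 2.17. The summed lectican RPKM in total RNA was 93.0 ± 6.33 in naive tissue and 41.8 ± 8.79 on dpi 2. Bcan went from 76.8 ± 6.26 to 20.5 ± 5.84 RPKM, and Ncan from 10.5 ± 0.292 to 15.7 ± 2.26 RPKM. By dpi 42 the shares of Bcan (83.8% ± 1.31) and Ncan (10.1% ± 1.54) were near the naive ones. In OL the Bcan share was 88.2% to 91.6% in naive tissue although the Bcan level differed several times between these libraries. It was 66.3% to 80.3% on dpi 2, while the Ncan share was 9.07% ± 0.979 in naive OL and 25.4% ± 8.7 on dpi 2. The dpi 2 and naive libraries did not overlap in either share in OL or total RNA. An exact two-sided permutation test gave p = 0.1 for each of these 4 differences, the smallest that 3 against 3 libraries allow, also after Benjamini-Hochberg adjustment.

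**Figure D3:**
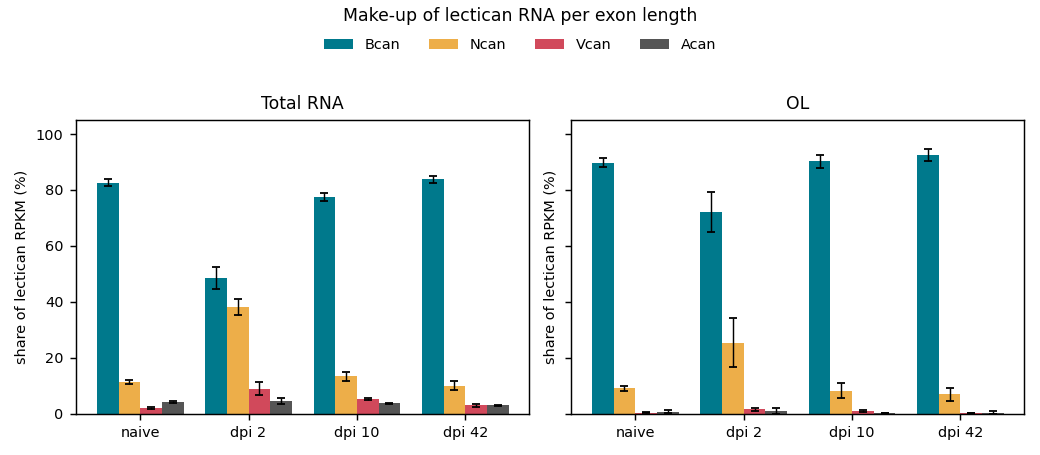
Share of each lectican in the summed RPKM of the 4 lecticans (percent, mean and SD of 3 libraries) in total RNA and OL by condition. Bcan is at 82.6% in naive and 48.5% in dpi 2 total RNA, Ncan at 11.3% and 38.0%, and both are near the naive shares by dpi 42.

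Changes of total RNA after SCI ask how the matrix genes of the whole tissue responded. On dpi 2, Tnc was upregulated, and Bcan, Tnr, Hapln1 and Hapln4 were downregulated, 5 of 9 members, where 14.3% of all genes were up and 17% down. On dpi 10, Tnc was up and Hapln1 and Hapln4 were down (12.4% and 13.3% of all genes). On dpi 42 Hapln1 alone was called, as down (9.15% up and 7.76% down over all genes). The median log2 difference of the members was -0.82, -0.29 and -0.34 on these days, against -0.10, -0.10 and -0.08 for all genes. In whole tissue, fewer cells of a type and less RNA per cell cannot be told apart.

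Tnc encodes tenascin-C, which reactive astrocytes and fibroblasts are known to make. Its total RNA level was 3.61, 4.56 and 5.16 CPM in naive tissue, 37.4, 38.0 and 39.1 CPM on dpi 2, 15.6, 20.3 and 22.5 CPM on dpi 10, and 4.94, 10.9 and 15.9 CPM on dpi 42. The dpi 2 and dpi 10 libraries lay above all naive ones, and the dpi 42 libraries overlapped with them. The log2 change was 3.10 ± 0.71 (q = 0.00138) on dpi 2, 2.13 ± 0.68 (q = 0.0202) on dpi 10 and 1.25 ± 0.67 (q = 0.202) on dpi 42. Without total RNA library 1 or 3 of naive tissue or library 2 of dpi 10, the dpi 10 change no longer passed. Summed fibroblast markers (such as Col1a1 and Lum) were at 58.1 to 70.2 CPM in naive total RNA, 321 to 649 CPM on dpi 2 and 1960.1 to 2229 CPM on dpi 10, and their part in the Tnc change was not tested. The genes most alike to Tnc over the 24 libraries were Parp3 and Emp1 (r = 0.94) and Ezr (r = 0.92), which encodes the membrane linker ezrin.

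Bcan was at 65.1, 74.4 and 110.1 CPM in total RNA on dpi 2, 201, 202 and 204 CPM on dpi 10 and 225, 244 and 269 CPM on dpi 42. All 3 days lay below the naive libraries, and each later day lay above the day before it. The log2 change was -1.91 ± 0.62 on dpi 2 (q = 0.0188), -0.63 ± 0.60 on dpi 10 (q = 0.47) and -0.34 ± 0.60 on dpi 42 (q = 0.747). The dpi 2 call was lost without total RNA library 1 or 2 of that day. Summed astrocyte markers in total RNA were 6947 to 8161 CPM in naive tissue and 7231 to 7385 CPM on dpi 2. Single markers in this sum need not move together, and their levels in total RNA are not given here. Gfap and Slc1a2 are shown as examples from the OL libraries, which cannot show how they moved in total RNA. In OL libraries 1, 2 and 3, Gfap was at 668, 495 and 2713 CPM in naive tissue and 1956, 695 and 5736 CPM on dpi 2. Slc1a2 was at 472, 506 and 3961 CPM and then at 306, 127 and 1092 CPM. The part of astrocyte RNA in the Bcan fall was not tested.

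Ncan was at 102, 106 and 132 CPM on dpi 2, above the 3 naive libraries, and below them on dpi 10 (53.0, 64.6 and 68.5 CPM) and dpi 42 (45.0, 50.6 and 62.2 CPM). Vcan was at 50.4, 50.7 and 57.6 CPM on dpi 2 and at 46.0, 50.0 and 53.6 CPM on dpi 10, all above its naive libraries. Acan was at 9.09, 12.6 and 22.6 CPM on dpi 2, 16.7, 18.4 and 18.7 CPM on dpi 10 and 14.3, 15.7 and 19.1 CPM on dpi 42, all below its naive libraries. None of these 3 genes passed the test in total RNA. Their log2 differences on dpi 2 were 0.59 ± 0.66 (q = 0.525), 1.05 ± 0.44 (q = 0.0717) and -0.97 ± 0.55 (q = 0.183).

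The fit estimates a single spread per gene from all 24 libraries, in which the OL libraries of Bcan, Ncan and Tnc vary widely. With only the naive and dpi 2 total RNA libraries in the fit, 8 of 9 members were called, all but Hapln2, where this fit called 41.0% of all genes in either direction. Ncan (log2 0.71, q = 2.2e-04), Vcan (1.16, q = 2.7e-05) and Acan (-0.86, q = 0.0158) were among them. The same kind of fit called 5 members on dpi 10 and 4 on dpi 42 (36.7% and 25.6% of all genes), with Vcan up on dpi 10 (1.11, q = 1.1e-06), Tnc up on dpi 42 (1.37, q = 0.00885) and Acan down on both days (-0.54, q = 3.2e-04 and -0.71, q = 9.8e-04).

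The link protein genes Hapln4 and Hapln1 both fell on dpi 2. Hapln4 was at 60.0, 81.7 and 111 CPM on dpi 2, 99.2, 109.6 and 111 CPM on dpi 10 and 144, 162 and 241 CPM on dpi 42, all below its naive libraries. Its log2 change was -1.75 ± 0.27 (q = 2.8e-05) on dpi 2, -1.41 ± 0.27 (q = 3.3e-04) on dpi 10 and -0.63 ± 0.26 (q = 0.095) on dpi 42. Hapln1 was at 3.59, 6.8 and 9.46 CPM, then at 8.65, 8.92 and 11.5 CPM, and then at 7.44, 9.79 and 13.6 CPM. These levels correspond to log2 changes of -2.04 ± 0.36 (q = 1.7e-04), -1.49 ± 0.35 (q = 0.00294) and -1.40 ± 0.35 (q = 0.00713).

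Tnr fell on dpi 2, and its dpi 10 libraries overlapped with the naive ones. It measured 67.9, 87.0 and 88.3 CPM on dpi 2, 142, 155 and 173 CPM on dpi 10 and 97.4, 117 and 136 CPM on dpi 42 in total RNA. The dpi 2 change was -0.82 ± 0.18 (log2, q = 0.00113), and with an offset for gene length and GC content it was -0.32 (q = 0.154), below the limit. Tnr and Vcan have the longest exon lengths of the members (12.9 and 14.5 kb), and the same offset brought Vcan past the limits on dpi 2 (1.65, q = 0.00832). Summed neuron markers went from 9187 to 9798 CPM in naive total RNA to 3579 to 4799 CPM on dpi 2 and 3942 to 4328 CPM on dpi 10, and their part in the fall of Hapln1, Hapln4 and Tnr was not tested. The genes most alike to Hapln4 over the 24 libraries were Cacng2 (r = 1.00), Kcnab2 and Scrt1 (r = 0.99), and those most alike to Hapln1 were Ppm1h, Pnmal1 (r = 0.98) and Gpr158 (r = 0.97). Cacng2 encodes stargazin, an auxiliary subunit of AMPA receptors, and Kcnab2 a subunit of potassium channels.

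**Figure D4:**
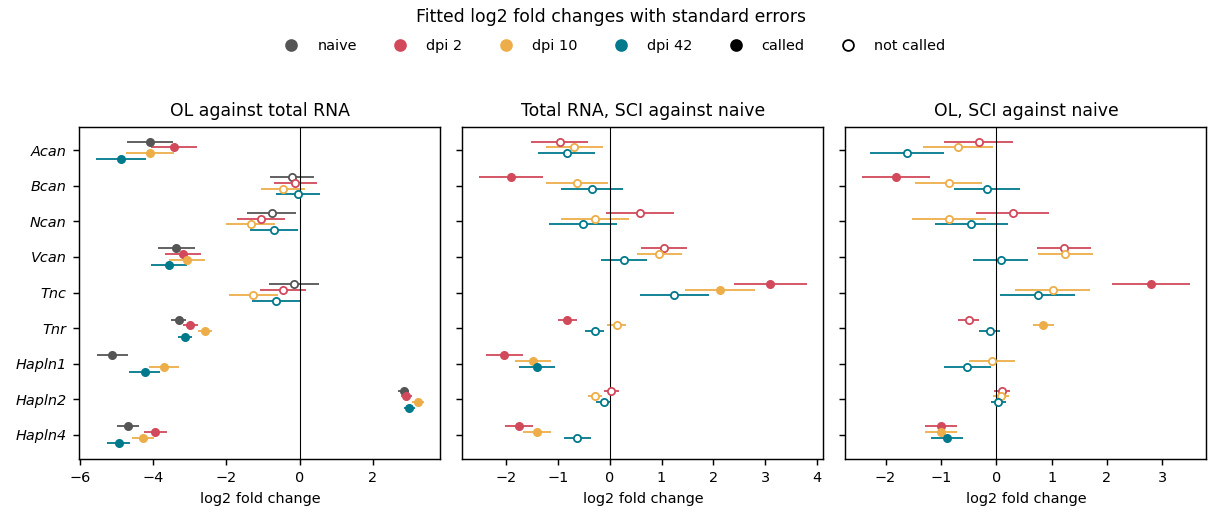
Fitted log2 fold changes (points) with standard errors (bars) for OL against total RNA (left), total RNA after SCI against naive (middle) and OL after SCI against naive (right), coloured by day. Filled points passed q under 0.05 and a log2 change past 0.5, and Hapln1 in OL on dpi 2 is left out because it has no counts there. Hapln2 lies right of 0 in the left panel and near 0 in the others, and Tnc is the filled point right of 0 on dpi 2 in both SCI panels.

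In OL, 4 of 9 members were called on dpi 2 (Tnc up, and Bcan, Hapln1 and Hapln4 down), 2 on dpi 10 (Tnr up and Hapln4 down) and 1 on dpi 42 (Hapln4 down). Over all genes, 15.9% rose and 16.4% fell by dpi 2. By dpi 10 these shares were 8.55% and 5.55%, and by dpi 42 they were 13.7% and 13%. The median log2 difference of the members was -0.32, -0.08 and -0.17 on these days, against 0.00 for all genes on each. With only the OL libraries of the 2 conditions in the fit, 1, 1 and 0 members were called (24.1%, 10.5% and 18.7% of all genes).

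Tnc in OL was at 0.84, 1.27 and 9.83 CPM in naive tissue and at 10.6, 14.9 and 58.5 CPM on dpi 2, with no overlap. The log2 change was 2.80 ± 0.70 (q = 0.00308), without dpi 2 OL library 3 it was 1.61 and no longer called, and without naive OL library 3 it was 4.66. With only the OL libraries of these conditions in the fit it was 2.83 and not called (q = 0.0944). Summed fibroblast markers in OL were at 59.1 to 99.6 CPM in naive tissue and 205 to 273 CPM on dpi 2, and their part in the Tnc change was not tested. On dpi 10 it was at 6.02, 6.13 and 12.3 CPM and on dpi 42 at 4.26, 7.58 and 8.35 CPM, both overlapping with naive tissue (1.02 ± 0.68, q = 0.336 and 0.75 ± 0.68, q = 0.439). Without OL library 3 of naive tissue and of dpi 2, both later days were called (2.94 ± 0.47, q = 1.0e-04 and 2.61 ± 0.47, q = 1.5e-04). That fit was chosen after seeing the data. It dropped the naive library with the highest Tnc and astrocyte marker sum (12373 CPM). It kept dpi 10 library 2 (7654 CPM) and dpi 42 libraries 1 and 2 (14783 and 12875 CPM), so the groups differ in astrocyte markers.

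Bcan in OL was at 47.7, 53.3 and 129.6 CPM on dpi 2, 106, 137 and 204 CPM on dpi 10 and 63.0, 326 and 330.2 CPM on dpi 42. The dpi 2 difference was -1.81 ± 0.62 (log2, q = 0.0244), but the libraries overlapped, and it was -0.24 and not called without naive OL library 3. The dpi 42 difference was -0.17 ± 0.60 (q = 0.915), and without naive OL library 3 it was 1.39 ± 0.47 (q = 0.026), called in the other direction. The direction for Bcan in OL thus depended on that library, while dpi 42 OL libraries 1 and 2, also high in astrocyte markers, stayed in. The dpi 2 call was also lost without OL library 1 or 2 of dpi 2.

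Ncan in OL was at 18.3, 34.6 and 111 CPM on dpi 2, and its log2 difference from naive tissue was 0.30 ± 0.66 (q = 0.793). The Ncan difference was -0.80 and not called without dpi 2 OL library 3, and 1.67 and called (q = 0.0413) without naive OL library 3, so its direction depended on these libraries. Vcan in OL was at 2.95, 4.9 and 9.68 CPM on dpi 2 and at 5.14, 6.16 and 6.45 CPM on dpi 10. The dpi 10 libraries of Vcan lay above all naive ones (1.25 ± 0.49, q = 0.0841), and the dpi 2 libraries overlapped with them (1.23 ± 0.49, q = 0.0521). Other fits called Vcan on both days. DESeq2 gave 1.27 on dpi 2 (q = 0.0207) and 1.28 on dpi 10 (q = 0.0356), and the offset for length and GC gave 1.83 (q = 0.00825) and 1.66 (q = 0.0304). The dpi 2 change of Vcan was also called without OL library 3 of naive tissue (1.67), 1 of dpi 2 (1.48), or 2 or 3 of dpi 42, and it was 0.59 and not called without dpi 2 OL library 3. The dpi 10 change of Vcan was called without OL library 3 of naive tissue (1.75) or of dpi 42 (1.24). Acan rested on 0 to 63 counts per OL library and passed in no comparison with naive OL by edgeR with all libraries (lowest q = 0.0713 on dpi 42, where library 1 held 0 counts and the log2 difference was -1.61). DESeq2 called Acan down on dpi 42 (-1.57, q = 0.0317). It was called as well without OL library 3 of naive tissue (-1.90), 2 of dpi 2 (-1.66) or 3 of dpi 42 (-3.28), and without OL library 3 of both naive tissue and dpi 2 (-1.90, q = 0.0334).

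Tnr in OL was at 7.7, 9.75 and 13.3 CPM on dpi 2, 20.4, 27.5 and 30.1 CPM on dpi 10 and 12.1, 13.1 and 14.8 CPM on dpi 42. The dpi 10 libraries lay above all libraries of naive tissue, dpi 2 and dpi 42. The log2 change from naive to dpi 10 was 0.85 ± 0.19 (q = 0.0029), and it was also called with only the OL libraries of these conditions (0.88, q = 0.0419). On dpi 2 Tnr was at -0.50 ± 0.19 (q = 0.0442), just under the limit of 0.5 before rounding. With the offset for length and GC the dpi 2 value of Tnr was 0.00 (q = 1.0). It ranged from -0.79 to -0.39 with single libraries left out, and 9 of these fits called it. Summed oligodendrocyte precursor markers (such as Pdgfra and Gpr17) were at 28.0 to 83.3 CPM in naive OL and at 54.4 to 87.7 CPM in OL on dpi 10. Summed fibroblast markers in OL went from 59.1 to 99.6 CPM in naive tissue to 535 to 619 CPM on dpi 10. The part of either in the Tnr change was not tested.

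Hapln4 in OL was at 4.17, 5.4 and 6.85 CPM on dpi 2, 3.27, 6.58 and 6.68 CPM on dpi 10 and 4.96, 6.31 and 6.53 CPM on dpi 42. Naive library 3 (6.58 CPM) overlapped with the first 2 days and lay above dpi 42. The log2 changes were -1.0 ± 0.29 (q = 0.00851), -1.0 ± 0.29 (q = 0.0191) and -0.89 ± 0.29 (q = 0.0204), and with only the OL libraries compared none was called (q = 0.0934, 0.132 and 0.103). The dpi 10 call was also lost without OL library 1 or 2 of naive tissue or 2 of dpi 10, and the dpi 42 call without OL library 1 or 2 of naive tissue or 1 of dpi 42.

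Hapln1 had 0 counts in all 3 OL libraries of dpi 2. It had 12, 17 and 28 counts in naive OL, 14, 16 and 28 counts on dpi 10, and 14, 14 and 16 counts on dpi 42. Set against a floor of 3 counts per library (0.117 CPM), the OL mean was 6.73-fold higher in naive tissue, 6.34-fold higher on dpi 10 and 4.69-fold higher on dpi 42. These folds use group means and leave out their spread, so they are no strict lower bounds. In total RNA of the same day the gene was at 3.59 to 9.46 CPM, with a mean 56.8-fold above that floor. Of 12037 genes with at least 12 counts in every naive OL library, 7 had 0 counts in every dpi 2 OL library. Intervals and floors of this kind cover counting error only, since reads were not collapsed to molecules.

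Differential OL enrichment asks whether a gene changed in OL by more or less than in total RNA. Only Hapln1 on dpi 2 was called (q = 0.00295), where its OL level was 0, and 13.2% of all genes were called on that day. On dpi 10 and dpi 42 no member was called by edgeR, where 7.21% and 7.46% of all genes were, and 2 and 0 members had an unadjusted p under 0.05. For Tnr on dpi 10 the OL change exceeded the total RNA change by 0.71 ± 0.26 (q = 0.105). With the tissue pool as a block, which pairs the OL and total RNA library of the same mice, it was 0.72 and called (q = 0.0475). Tnc, whose level rose in both kinds of RNA on dpi 2, had a differential enrichment of -0.30 ± 0.94 (q = 0.953), an error too wide to say whether the changes were alike.

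The days after SCI were also compared with each other. From dpi 2 to dpi 10, Tnr rose in OL (1.34 ± 0.19, q = 2.6e-05) and in total RNA (0.95 ± 0.18, q = 0.00181), without overlap of libraries in either, and Hapln1 returned in OL. These are 2 members in OL and 1 in total RNA, where 17.5% and 5.65% of all genes were called. With only the OL libraries of both days in the fit, Tnr stayed called (1.32, q = 0.00754) and Hapln1 did not (q = 0.0651). With only the total RNA libraries of both days, 4 members were called (Bcan and Tnr up, Ncan and Tnc down), where that fit called 13.6% of all genes. From dpi 10 to dpi 42, Tnr fell again in OL (-0.97 ± 0.19, q = 0.0056), where 5.02% of all genes were called. With only the OL libraries of both days it was not called (-0.96, q = 0.067). In total RNA no member passed by edgeR with all libraries, where 0.227% of all genes did and 2 members had an unadjusted p under 0.05. With only the total RNA libraries of both days, 2 members were called (1 up and 1 down), and the share of all genes in that fit is not given here. Between dpi 2 and dpi 42, Tnc fell in OL (-2.05 ± 0.68, q = 0.0402), which no longer held with the replicate number as a block (-1.75, q = 0.0784) or without dpi 2 OL library 3 (-0.93) or any single OL library of dpi 42. Hapln1 rose in OL over the same days, where 13.5% of all genes were called, and with only the OL libraries of both days neither Tnc (q = 0.0836) nor Hapln1 (q = 0.227) was. In total RNA Hapln4 rose between these days (1.12 ± 0.27, q = 0.00875, with 7.67% of all genes called), and the call was lost without library 2 of dpi 2 or of dpi 42. With only the total RNA libraries of these days, 5 members were called (Bcan and Hapln4 up, Ncan, Vcan and Tnc down), against 14.7% of all genes.

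Genes that make, cut or read the same matrix were counted from lists compiled by function, to be read against the shares of all genes called, which were 21.7% higher and 28.6% lower in naive OL enrichment, 15.9% up and 16.4% down in OL on dpi 2, and 14.3% up and 17% down in total RNA on dpi 2. All 12 enzymes of chondroitin chain synthesis were tested. In naive OL enrichment 0 were higher and 8 lower (median -1.18, all genes -0.27), among them Fam20b (-1.19 ± 0.10, q = 1.2e-09), a kinase of the linker sugar. In OL on dpi 2, 4 rose and 0 fell, led by Chpf2 (1.21 ± 0.16, q = 4.5e-06) and B3gat3 (0.69 ± 0.11, q = 2.2e-05), and in total RNA 0 rose and Fam20b fell (-0.60 ± 0.10, q = 5.1e-05). The median OL change on dpi 2 was 0.03, against 0.00 for all genes. Chpf, which encodes the chondroitin polymerizing factor, was at 17.4, 20.6 and 30.9 CPM in naive OL and at 41.4, 41.5 and 78.7 CPM in OL on dpi 2, with no overlap (1.23 ± 0.24, q = 3.2e-04).

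Of 10 enzymes of chondroitin sulfation and epimerisation, 4 were higher and 4 lower in naive OL than in total RNA (median 0.46). Chst3, a sulfotransferase acting on the 6 position, was at 43.6, 44.7 and 46.0 CPM in naive OL and at 16.6, 20.4 and 24.2 CPM in OL on dpi 2. That fall (-1.13 ± 0.17, q = 1.3e-05) had no overlap of libraries. Chst15 was the most depleted of those with counts in each group (-4.36 ± 0.28, q = 2.9e-11), and it rose in OL on dpi 2 (1.09 ± 0.27, q = 0.00276). In total RNA on dpi 2, Chst14 (2.08 ± 0.23, q = 4.3e-07) and Dse (1.57 ± 0.46, q = 0.00975), which act on dermatan sulfate, rose and Ust fell (-0.88 ± 0.26, q = 0.0108).

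Of 7 lectican-cleaving ADAMTS proteases, 2 were higher and 4 lower in naive OL (median -1.35). Adamts4 was at 786, 931 and 952 CPM in naive OL against 107, 114 and 118 CPM in total RNA, an enrichment close to that of Hapln2 in size (2.98 ± 0.14, q = 4.1e-13). It fell in OL on dpi 2 (-0.87 ± 0.13, q = 2.2e-05), to 425, 446 and 587 CPM. Adamts5 rose in OL on dpi 2 from 1.02, 1.34 and 4.67 CPM to 13, 19.2 and 25.2 CPM (3.02 ± 0.41, q = 5.2e-06), and in total RNA by 1.18 ± 0.37 (q = 0.016). In total RNA on dpi 2, 2 proteases rose and 1 fell.

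Of 10 genes of hyaluronan synthesis, binding and turnover, 2 were higher and 5 lower in naive OL (median -1.97). Tnfaip6, a hyaluronan-binding protein induced by inflammation in many tissues, was at 188, 219.9 and 252 CPM in naive OL and at 26.9, 31.1 and 35.7 CPM in naive total RNA (2.82 ± 0.17, q = 1.2e-11). Cd44, the hyaluronan receptor, rose on dpi 2 in total RNA from 8.94, 13.5 and 18.3 CPM to 127, 143 and 149 CPM (3.36 ± 0.35, q = 2.5e-07) and in OL from 16.2, 17.9 and 21.4 CPM to 86.5, 131 and 187 CPM (2.86 ± 0.34, q = 1.2e-06). On dpi 2, 4 genes of the list rose and 1 fell in OL, and 3 rose and 1 fell in total RNA. The gene that fell was Tnfaip6 in both OL (-0.80 ± 0.16, q = 4.9e-04) and total RNA (-0.86 ± 0.17, q = 2.8e-04). Summed microglia and macrophage markers were at 4.95 to 6.72 CPM in naive OL and 61.0 to 78.6 CPM in OL on dpi 2, and at 87.2 to 107 and 985 to 1259.9 CPM in total RNA, and their part in the Cd44 rise was not tested.

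Of 9 other chondroitin sulfate proteoglycans, 1 was higher and 6 lower in naive OL (median -1.97). Spock3, a testican, was the enriched gene (1.53 ± 0.17, q = 1.0e-07), and it fell in OL on dpi 2 from 379, 576 and 613 CPM to 76.7, 85.3 and 100.4 CPM (-2.58 ± 0.18, q = 7.0e-10) and in total RNA (-1.71 ± 0.17, q = 1.4e-07). In total RNA on dpi 2, 4 of the 9 rose and 3 fell (median -0.09, all genes -0.10), with Srgn (4.05 ± 0.51, q = 2.7e-06) and Dcn (3.40 ± 0.45, q = 4.5e-06) leading those that rose. Srgn is the proteoglycan of blood cell granules, and Dcn (decorin) one of fibroblasts. In OL on dpi 2, 4 rose and 3 fell.

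Of 6 receptors of chondroitin sulfate and tenascins, 1 was higher and 5 lower in naive OL (median -1.49). The enriched gene was Ptprf (LAR, 1.20 ± 0.10, q = 1.5e-09), and Rtn4rl1 was lowest (-4.44 ± 0.33, q = 2.0e-10). On dpi 2, Ptprf fell in OL (-0.57 ± 0.10, q = 9.4e-05) and Ptprs (PTP sigma) fell in total RNA (-0.56 ± 0.17, q = 0.0111), and no receptor rose in either. The remaining link protein and tenascins, Hapln3, Tnn and Tnxb, gave no call in naive OL enrichment or in either kind of RNA on dpi 2, and Tnxb rose later. Its change was 1.93 ± 0.56 (q = 0.0109) on dpi 10 and 1.67 ± 0.56 (q = 0.0343) on dpi 42 in total RNA, and 2.14 ± 0.58 (q = 0.0127) and 2.08 ± 0.58 (q = 0.00822) in OL. Tnxb levels in OL were low, at 0.592, 0.924 and 2.95 CPM in naive tissue and 3.5, 7.81 and 8.53 CPM on dpi 10. Summed fibroblast markers in OL were at 59.1 to 99.6 CPM in naive tissue, 535 to 619 CPM on dpi 10 and 219 to 274 CPM on dpi 42. Their part in the Tnxb change was not tested.

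Genes that lie beside each other can be set side by side. Hapln2 and its neighbour Bcan were at 333 and 66.5 RPKM in naive OL and at 46.2 and 76.8 RPKM in naive total RNA. On dpi 2 in total RNA, Hapln1 fell while Vcan was at 1.05 ± 0.44, and Hapln4 fell while Ncan was at 0.59 ± 0.66. The genes most alike to each remaining member were Rhof, Nyap2 and Fhod3 for Acan (r = 0.97), Ppp1r1b (r = 0.94), Ntsr2 and Adhfe1 (r = 0.93) for Bcan, Ddah1 (r = 0.97), Atp13a4 (r = 0.95) and Nrcam (r = 0.94) for Ncan, Nucb2, Pik3cd (r = 0.97) and Tnfrsf11a (r = 0.96) for Vcan, and Pacs1, Celf2 and Celf5 (r = 0.98) for Tnr. No gene was among the 3 closest to more than 1 member.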

How the data were processed

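Counts were deposited by the authors as a single table of raw read counts per gene for the 24 libraries. Per the labels and methods, they checked reads with FastQC 0.10.1, aligned them to mm10 with STAR and counted them with HTSeq 0.10.0, and the strand setting is not given in the sources used here. The 2 dpi 42 libraries whose labels conflict were placed by their description, which the column names follow. Genes summing to 10 counts or more over all libraries entered edgeR 4.0.16 (TMM, quasi-likelihood, 8 group means, all 24 libraries, R 4.3.3), and p-values were adjusted by Benjamini-Hochberg over 17167 genes. SE is the log2 change divided by the square root of the F statistic. The test was tested on simulated data. Exon lengths came from GENCODE M21. Named genes are the 9 members, the called list genes with the smallest q, and for each member the 3 genes (mean CPM of at least 1) with the highest Pearson r over the 24 libraries. The members and lists were chosen with earlier results of these data known.

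Replicates within a group differed by more than sampling noise in all 24 pairs (median chi-square per gene 2.51 to 21.1). The pool pairs OL and total RNA by design. Deviations of the same pool correlated at 0.11 to 0.217 in naive tissue, 0.151 to 0.171 on dpi 2, 0.0437 to 0.138 on dpi 10 and -0.0525 to 0.00658 on dpi 42. Alternatives were DESeq2 1.42.0 (its size factors and its Wald test), library sizes alone, no count filter, an offset for length and GC, only the groups compared, a replicate block, and libraries left out.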

Additional observations from a re-analysis of the deposited data

Results flagged for a closer look

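The OL change and the total RNA change of Hapln1 on dpi 2 differed by a test of the difference itself (interaction term, edgeR quasi-likelihood, q = 0.00295). Its OL libraries held 12, 17 and 28 counts in naive tissue and 0, 0 and 0 counts on dpi 2, and its total RNA libraries held 781, 820 and 927 counts and 120, 243 and 313 counts. The fitted size of the difference depends on how a count of 0 is treated and is not given.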

How the results depend on the processing

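Numbers are members called of 9. With only the groups compared in the fit, the OL changes at dpi 2, 10 and 42 against naive tissue gave 1, 1 and 0 calls (from 4, 2 and 1), and the total RNA changes gave 8, 5 and 4 (from 5, 3 and 1). Between days, that fit gave 1 (OL, dpi 10 against 2), 0 (OL, dpi 42 against 10), 0 (OL, dpi 42 against 2), 4 (total RNA, dpi 10 against 2), 2 (total RNA, dpi 42 against 10) and 5 (total RNA, dpi 42 against 2), from 2, 1, 2, 1, 0 and 1. Fewer libraries estimate the spread there. The offset for length and GC gave 5 and 2 calls in total RNA at dpi 10 and 42. DESeq2 gave 2 calls in OL at dpi 42 and 3 in total RNA between dpi 42 and dpi 2.

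With the tissue pool as a replicate block, Tnr was called in differential OL enrichment at dpi 10 (1 call, from 0), and Ncan was called depleted in OL at dpi 10 (-1.45, q = 0.0471). With the replicate number as a block, which across days is only a number, OL at dpi 42 against dpi 2 gave 1 call and total RNA gave 2. Same-numbered naive and injured OL libraries correlated in their deviations at 0.136 to 0.33 at dpi 2, -0.212 to 0.118 at dpi 10 and -0.383 to -0.14 at dpi 42.

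Without pool 2 of dpi 2, OL at dpi 42 gave 2 calls and total RNA at dpi 42 against dpi 2 gave 0. Without the libraries with conflicting labels, OL at dpi 42 gave 0 calls, total RNA at dpi 42 gave 2, and dpi 42 against dpi 2 gave 1 in OL and 0 in total RNA. Without OL library 3 of naive tissue and of dpi 2, chosen after seeing the data, OL at dpi 10 and 42 gave 4 calls each, total RNA at dpi 42 gave 2, differential enrichment at dpi 10 and 42 gave 1 each, OL at dpi 42 against dpi 10 gave 2, total RNA at dpi 10 against dpi 2 gave 2, and total RNA at dpi 42 against dpi 2 gave 3. Bcan in OL at dpi 42 then turned from -0.17 to 1.39. These fits kept dpi 42 OL libraries 1 and 2, which are high in astrocyte markers.

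Leaving out each library in turn gave 6 to 9, 6 to 8, 6 to 8 and 6 to 6 calls in OL enrichment (naive, dpi 2, 10 and 42), 3 to 6, 1 to 4 and 0 to 4 in OL, 4 to 6, 2 to 4 and 1 to 2 in total RNA, and 1 to 1, 0 to 0 and 0 to 0 in differential enrichment. Between days it gave 2 to 3, 1 to 2 and 1 to 3 in OL (dpi 10 against 2, 42 against 10, 42 against 2) and 1 to 1, 0 to 0 and 0 to 3 in total RNA. Bcan in OL at dpi 42 ranged from -0.67 to 1.39, the latter without naive OL library 3. Other causes were not tested. Scaling by library size alone moved the median of all genes in OL enrichment by -0.51 in naive tissue and turned no called member. A count of 0 allows up to 0.117 CPM in OL at dpi 2.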
